A study of Mus musculus with 21 samples.

Results

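Glutathione S-transferases were followed as 9 listed genes, Gsta2, Gsta3, Gsta4, Gstm1, Gstm2, Gstm5, Gsto1, Gstt1 and Gstp1, among 23238 gene symbols counted in mouse lung. All 9 were found in the files and all 9 were among the 14727 genes with enough counts to be tested. RNA came from the lungs of 21 C57BL/6 mice, 3 in each of 7 groups and 1 library per animal, and was read by sequencing from the 3′ end, so that a count reflects transcript ends and not transcript length. Animals had received 50 µL into the trachea on each of 14 days, with tissue collected on day 15 after the lungs had been lavaged. The treated groups were PG, propylene glycol, the base liquid of many vaping products, at 826 or 1100, with saline as its control, and VEA, the oily additive vitamin E acetate, at 3.12, 6.25 or 12.5, with 10% ethanol as its control. The sample labels give the doses in mg/kg and the series description gives the same figures in mg/mL, so only the figures are used. The labels do not state what VEA was dissolved in, nor the sex or age of the animals.

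These enzymes join the tripeptide glutathione to reactive, electron-poor molecules, which makes them more soluble and marks them for export. The cytosolic enzymes fall into classes named by Greek letters, here alpha (Gsta), mu (Gstm), pi (Gstp), theta (Gstt) and omega (Gsto). In the mouse lung, club cells of the airway lining are known to be rich both in cytochrome P450 enzymes, which make reactive products, and in glutathione transferases. Several of the genes are known targets of the transcription factor NRF2, which acts through antioxidant response elements, and some also of the aryl hydrocarbon receptor, which acts through dioxin response elements.

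Library totals were 8778028 to 11783151 counts. Levels are given as CPM, scaled to the TMM-adjusted library total, as mean ± SD over 3 animals, and changes as log2 fold change ± SE from 1 edgeR quasi-likelihood model over all 21 libraries. Genes passed the test, or were called, where the p adjusted by Benjamini-Hochberg over all genes tested fell below 0.05. The number in each sample title is taken here as that of an animal, which the labels do not state outright. They name no cage, batch or day either, so the p-values measure the spread between these libraries, which may be technical in part. Lung markers were present in every group, with type II cell markers summing to 25600 to 53640 CPM and club cell markers to 23700 to 72520 CPM per library. In contrast, 5 hepatocyte markers summed to 0 to 21.8 CPM. Heart muscle markers, the other list standing for other tissue, were present and differed with treatment. They summed to 219.5 to 309.5 CPM after saline and 125.3 to 190.5 CPM after PG 1100. After ethanol they summed to 152.4 to 339.3 CPM and after VEA 12.5 to 81.45 to 111.0 CPM. The part of heart tissue in the transferase changes was not tested.

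The promoters of Gsta3, Gstm1 and Gstm2, which were each lower after PG 1100 and every VEA dose, are shown with that of Gstm5, which lies in the same chromosomal cluster and did not pass the test in any comparison. Each runs from 250 bases before to 50 bases after a transcription start in RefSeq (GRCm38.p6), 5′ to 3′ on the strand of the gene. Capitals mark letters matching the antioxidant response element core TGACNNNGC, the dioxin response element core GCGTG or the AP-1 site TGANTCA on either strand.
Gsta3 (chr1:21240335-21240634, plus strand): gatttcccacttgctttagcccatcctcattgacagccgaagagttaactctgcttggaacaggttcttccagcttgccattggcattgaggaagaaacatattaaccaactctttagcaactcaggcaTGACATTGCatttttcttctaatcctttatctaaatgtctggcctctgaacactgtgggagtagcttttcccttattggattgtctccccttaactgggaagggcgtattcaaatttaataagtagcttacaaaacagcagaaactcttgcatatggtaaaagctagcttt
Gstm1 (chr3:108017924-108018223, minus strand): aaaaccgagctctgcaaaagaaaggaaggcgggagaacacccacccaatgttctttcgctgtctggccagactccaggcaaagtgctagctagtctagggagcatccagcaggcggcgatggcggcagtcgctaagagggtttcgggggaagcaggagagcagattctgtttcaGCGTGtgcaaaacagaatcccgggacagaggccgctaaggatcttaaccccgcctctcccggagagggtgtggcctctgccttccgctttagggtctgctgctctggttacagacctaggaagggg
Gstm2 (chr3:107986371-107986670, minus strand): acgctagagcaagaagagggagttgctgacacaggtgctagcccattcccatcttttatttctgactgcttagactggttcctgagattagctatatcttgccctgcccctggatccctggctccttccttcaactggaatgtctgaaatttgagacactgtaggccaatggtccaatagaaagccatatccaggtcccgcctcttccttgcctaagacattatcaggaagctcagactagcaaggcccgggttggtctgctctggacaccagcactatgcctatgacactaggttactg
Gstm5 (chr3:107895604-107895903, plus strand): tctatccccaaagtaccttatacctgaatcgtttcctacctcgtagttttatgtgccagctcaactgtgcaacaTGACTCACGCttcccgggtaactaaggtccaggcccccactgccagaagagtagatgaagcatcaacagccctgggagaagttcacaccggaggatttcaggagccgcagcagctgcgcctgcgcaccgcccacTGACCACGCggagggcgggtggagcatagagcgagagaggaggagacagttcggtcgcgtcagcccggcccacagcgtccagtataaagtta

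Of the 9 genes, 8 had a promoter in the RefSeq table. The antioxidant core matched in Gsta3, 121 bases before the start, and in Gstm5, 42 bases before it, while 12.4% of 32851 promoter windows held a match. The dioxin core matched in Gstm1, Gsta2, Gstp1 and Gstm5, against 32.4% of all windows, and the AP-1 site in Gstm5 and Gstp1, against 7.81%. In Gstm5 both dioxin matches overlap another motif, one the AP-1 site and one the antioxidant core. Windows of Gstm2, Gstt1 and Gsto1 held none of the 3 motifs. A second Gstm1 window, starting at 108017769, held the same dioxin match. The Gsta2 window, 78347096 to 78347395 on the minus strand, lies inside the GENCODE M21 gene (78331018 to 78355788) and not at its 5′ end. The 2 annotations thus place the Gsta2 start differently. These matches describe letters in the window and no binding was measured.

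Close relatives in this family can share reads, and the counting annotation is not given in the sources used here. In the last 500 bases of each principal transcript of GENCODE release M21, the 50-base words that also occur in transcripts of other genes were counted. For Gstp1 75.2% of the 451 words also occur in Gstp2, and for Gsta2 51.0% occur in 4 other genes, most often Gsta1. The share was 0.887% for Gstm1 and 3.10% for Gstm2, and no word of Gsta3, Gsta4, Gstm5, Gsto1 or Gstt1 occurred elsewhere. Values of Gsta2 and Gstp1 are therefore less certain as values of single genes.

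The listed alpha genes and 2 of the 3 listed mu genes were lower than in ethanol lungs at every VEA dose. After VEA 12.5, Gsta2, Gsta3, Gsta4, Gstm1 and Gstm2 fell and no member rose, so that 5 of 9 members were lower, against 4.23% of all genes tested, with 5.48% higher and 9.71% called in all. The same 5 genes were lower after VEA 3.12 and after VEA 6.25, where 2.09% and 2.25% of all genes were lower, 3.42% and 3.51% higher, and 5.51% and 5.76% called in all. The 3 VEA groups share the same ethanol libraries, so these counts are not independent of each other. The median log2 fold change of the 9 members was -0.70, -0.73 and -0.71 at VEA 3.12, 6.25 and 12.5, while that of all genes was between -0.01 and 0.00.

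PG was compared with saline. After PG 1100, Gsta3, Gstm1 and Gstm2 fell, 3 of 9 members against 3.23% of all genes lower, 4.09% higher and 7.31% called in all, and no member rose. Without saline animal 6, 5 members were lower, and the share of all genes in that fit is not given here. The test of the difference between the agents, given further on, called no member, so these counts do not show that PG and VEA differ. After PG 826, Gstm2 fell, 1 of 9 against 0.0407% of all genes lower, 0.0951% higher and 0.136% called in all. The median log2 fold change of the members was -0.17 at PG 826 and -0.38 at PG 1100, with 0.00 and 0.01 for all genes. Both PG groups were compared with the same saline libraries.

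**Figure D1:**
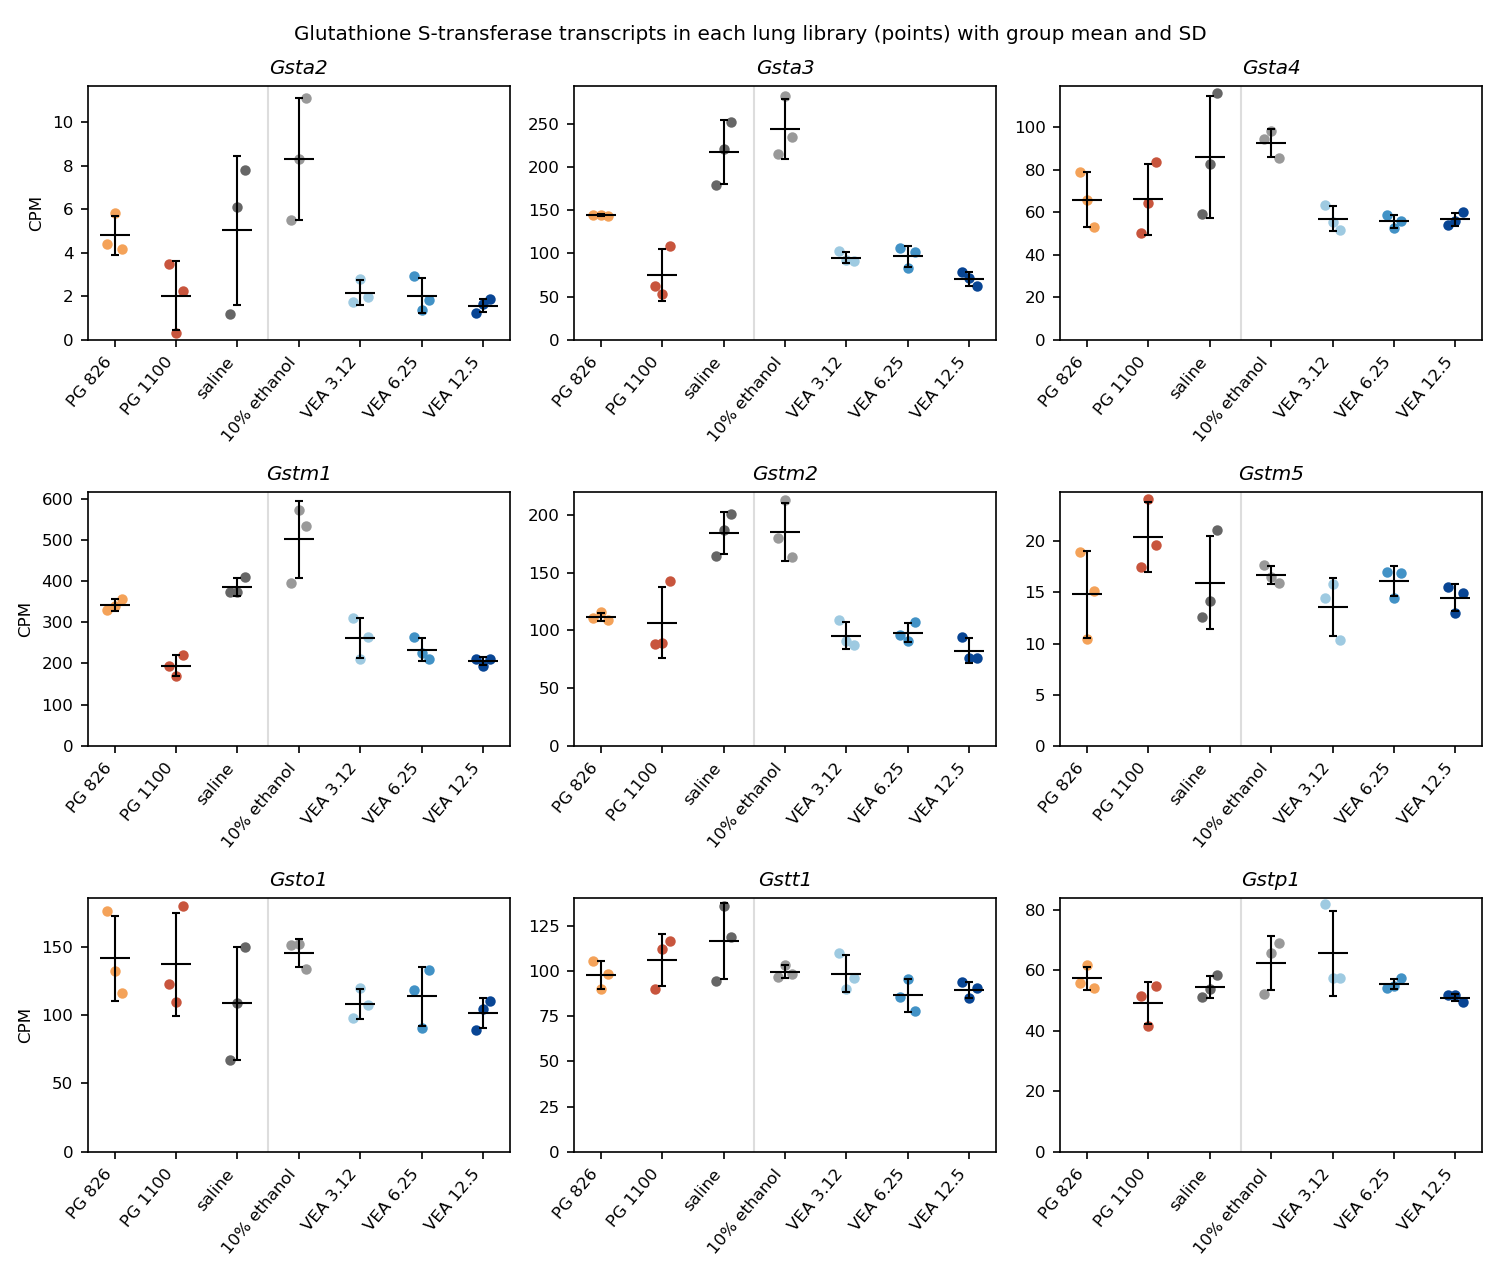
CPM of the 9 transferases (vertical axes, linear, from 0) in each of the 21 lung libraries (points), by treatment group, with the group mean (bar) and SD (whiskers) over 3 animals. Gsta3 lay at 61.9 to 78.2 CPM after VEA 12.5, against 214.5 to 281.5 CPM after 10% ethanol, whereas Gstp1 lay between 41.5 and 81.8 CPM in all groups.

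Gsta3, an alpha class enzyme known in mice for conjugating the reactive epoxide of aflatoxin, lies on chromosome 1 (21240589 to 21265661, GRCm38) and was carried by 2094 to 6733 counts per group. It had 78.2, 71.2 and 61.9 CPM in the 3 lungs given VEA 12.5, against 214.5, 281.5 and 234.3 CPM in the ethanol lungs. It had 62.3, 52.4 and 108.7 CPM in the lungs given PG 1100, against 178.4, 220.0 and 252.2 CPM in the saline lungs. Neither pair of groups overlapped, and the PG 1100 animals were more spread than the VEA animals.

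The fitted change of Gsta3 was larger than that of Gsta4, Gstm1 or Gstm2 after PG 1100 and after each VEA dose, a difference between genes that was not tested. It was -1.79 ± 0.18 after VEA 12.5 (adjusted p = 1.93e-08), -1.33 ± 0.18 after VEA 6.25 and -1.36 ± 0.18 after VEA 3.12, and -1.54 ± 0.18 after PG 1100 (adjusted p = 5.93e-07). After VEA 12.5 the level was 29.0% of that in ethanol lungs, and after PG 1100 it was 34.3% of that in saline lungs. At PG 826 the 3 lungs had 142.6 to 144.8 CPM, below all saline lungs, yet the change of -0.59 ± 0.18 did not pass (adjusted p = 0.247). From low to high, the group means were 70.5 CPM for VEA 12.5, 74.5 for PG 1100, 95.0 for VEA 3.12, 96.7 for VEA 6.25, 143.9 for PG 826, 217 for saline and 243 for ethanol. The PG 1100 animals overlapped all 3 VEA groups, VEA 12.5 lay below the other VEA groups, PG 826 overlapped no other group, and saline and ethanol overlapped.

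Gsta4, an alpha class enzyme known for conjugating hydroxynonenal, a product of lipid peroxidation, lies on chromosome 9 (78182774 to 78209349). It had 54.2, 55.9 and 59.9 CPM after VEA 12.5, against 94.3, 97.9 and 85.3 CPM after ethanol. It had 50.1 to 83.6 CPM after PG 1100, against 59.2 to 116.0 CPM after saline. The VEA and ethanol groups were well apart, and the PG and saline groups overlapped.

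Gsta4 fell by nearly the same amount at all VEA doses, -0.70 ± 0.18, -0.73 ± 0.18 and -0.71 ± 0.18 from the lowest to the highest (adjusted p = 0.0163, 0.0124 and 0.00860). Its change after PG 1100 was -0.38 ± 0.18 (adjusted p = 0.230) and after PG 826 -0.39 ± 0.18 (adjusted p = 0.509). Without saline animal 6, which had the lowest saline level, the change after PG 1100 was -0.59 (adjusted p = 0.0341). The calls at VEA 3.12 and 6.25 were lost without some single animals. Under the alternatives listed with the methods, other than VEA against saline, the change stayed between -0.79 and -0.64 at VEA 3.12. At VEA 6.25 it stayed between -0.79 and -0.69. At VEA 3.12 the adjusted p was 0.0527 without ethanol animal 12, 0.0698 without ethanol 13, 0.057 without VEA 57 and 0.0897 without VEA 59. At VEA 6.25 it was 0.0548 without ethanol 13 and 0.0684 without VEA 64.

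Gsta2, an alpha class gene known in rodents to be induced through both NRF2 and the aryl hydrocarbon receptor, lies on chromosome 9 (78331018 to 78355788) and had only 3 to 103 counts per library. It had 1.23, 1.62 and 1.85 CPM after VEA 12.5, against 5.49, 8.31 and 11.1 CPM after ethanol. It had 3.48, 0.332 and 2.23 CPM after PG 1100, against 1.18, 6.09 and 7.78 CPM after saline. Saline animal 6 lay within the range of the PG 1100 lungs, while all VEA lungs lay below all ethanol lungs.

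The fitted change of Gsta2 was -2.40 ± 0.57 after VEA 12.5 (adjusted p = 0.00456), -2.03 ± 0.57 after VEA 6.25 (0.0260) and -1.94 ± 0.56 after VEA 3.12 (0.0340). After PG 1100 it was -1.30 ± 0.57 (adjusted p = 0.177), and -1.77 (0.0418) without saline animal 6. The 2 lower VEA calls ended without single animals. For VEA 3.12 the adjusted p was 0.0777 without ethanol 13, 0.136 without ethanol 14, 0.14 without VEA 56, 0.0567 without VEA 57 and 0.118 without VEA 59. For VEA 6.25 it was 0.0632 without ethanol 13, 0.114 without ethanol 14, 0.134 without VEA 64 and 0.0976 without VEA 65. With reads of its close relatives added, the change at VEA 3.12 was -1.38 (adjusted p = 0.0548).

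The mu class genes Gstm1, Gstm2 and Gstm5 lie within 122.2 kb of chromosome 3, and the first 2 of them passed the test in several comparisons while Gstm5 passed in none. Gstm1, a broad-range mu class enzyme (108012255 to 108017973), had 210.8, 194.7 and 211.0 CPM after VEA 12.5, against 395.0, 573.3 and 534.5 CPM after ethanol. It had 194.0, 168.7 and 219.8 CPM after PG 1100, against 372.1, 372.1 and 409.9 CPM after saline. No treated lung of these 2 groups reached the lowest control lung.

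The log2 fold change of Gstm1 was -0.94 ± 0.14, -1.10 ± 0.14 and -1.29 ± 0.15 at VEA 3.12, 6.25 and 12.5 (adjusted p = 4.27e-05, 3.04e-06 and 8.02e-08) and -0.99 ± 0.14 after PG 1100 (adjusted p = 1.22e-05). At PG 826 it had 329.5 to 356.4 CPM, below the saline lungs, with a change of -0.17 ± 0.14 (adjusted p = 0.767). From low to high, its group means were 194 CPM for PG 1100, 205.5 for VEA 12.5, 233 for VEA 6.25, 262 for VEA 3.12, 341.5 for PG 826, 385 for saline and 501 for ethanol. Each neighbour in this order overlapped the next in its 3 animals except VEA 3.12 against PG 826 and PG 826 against saline. Gstm1 supplied 23.7% to 39.7% of the summed CPM of the 9 members in a library. That sum averaged 673 ± 17.9 CPM after VEA 12.5, against 1355 ± 152.6 CPM after ethanol.

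Gstm2, a close mu class relative of Gstm1 (107981702 to 107986453), was the member that passed the test at the lower PG dose. It had 110.4, 116.0 and 109.4 CPM after PG 826 and 88.3, 89.5 and 142.5 CPM after PG 1100, against 164.8, 187.2 and 201.2 CPM after saline. It had 94.7, 76.0 and 76.1 CPM after VEA 12.5, against 180.5, 212.9 and 163.2 CPM after ethanol. All treated lungs lay below all control lungs, and PG 1100 animal 30 stood above the other animals of its group.

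The change of Gstm2 was -0.72 ± 0.15 after PG 826 (adjusted p = 0.0379) and -0.79 ± 0.15 after PG 1100 (adjusted p = 0.000626). After VEA 3.12, 6.25 and 12.5 it was -0.96 ± 0.15, -0.92 ± 0.15 and -1.17 ± 0.15 (adjusted p = 8.16e-05, 0.000148 and 1.66e-06). The PG 826 call ended without saline 8 or 10 (both 0.183), without PG 22, 23 or 25 (0.124, 0.111 and 0.156) and with only the 2 groups in the fit (0.0521), while the change stayed between -0.65 and -0.74 without single animals of those 5. Summed with its mu class relatives, most of whose reads are those of Gstm1, the change after PG 826 was -0.31 (adjusted p = 0.466).

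Gstm5, another mu class gene of the cluster (107895821 to 107898686), had 13.0 to 15.5 CPM after VEA 12.5, against 16.0 to 17.7 CPM after ethanol, and 17.5 to 24.1 CPM after PG 1100, against 12.6 to 21.1 CPM after saline. Its change was -0.21 ± 0.24 after VEA 12.5, with an interval of 2 SE from -0.68 to 0.27, and 0.35 ± 0.24 after PG 1100, with an interval from -0.12 to 0.82. The changes of Gstm1 in the same comparisons lie outside these intervals, while a smaller fall after VEA does not. The difference in change between Gstm5 and its neighbours was not tested.

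**Figure D2:**
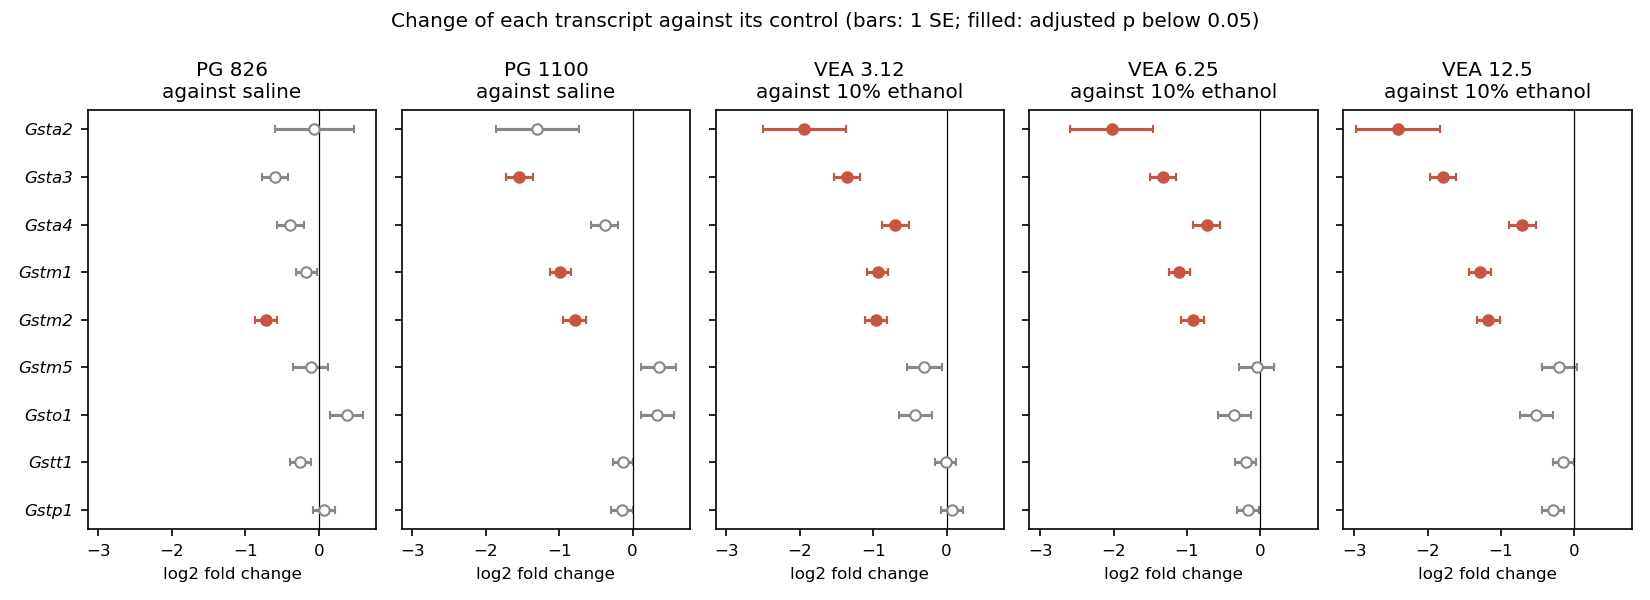
Log2 fold change (horizontal axes) of each transferase against its own control in 5 comparisons, with bars of 1 SE and filled points for adjusted p below 0.05. In the 3 VEA panels 5 genes are filled, all left of 0, in the PG 1100 panel 3 and in the PG 826 panel 1.

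The pi, theta and omega genes did not pass the test in any of the 9 comparisons of the model. Gstp1, the pi class enzyme, which besides conjugation is known to bind stress kinases (chromosome 19, 4035407 to 4037985), had 49.5 to 51.7 CPM after VEA 12.5, against 52.1 to 68.9 CPM after ethanol. Its change was -0.29 ± 0.15 (adjusted p = 0.263, 2 SE from -0.59 to 0.01), and -0.14 ± 0.15 after PG 1100 (adjusted p = 0.672). Its neighbour Gstp2, with which it shares most of its 3′ end, had 50.0 ± 0.461 CPM after VEA 12.5 and 59.4 ± 8.47 CPM after ethanol. One animal of VEA 3.12, number 56, had 81.8 CPM of Gstp1, above every other library. The VEA 12.5 and ethanol lungs did not overlap in Gstp1, Gstt1 or Gstm5, although none passed the test. The share of all genes apart in this way was not counted, so no fall is read from it.

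Gstt1, a theta class enzyme known for conjugating small halogenated solvents (chromosome 10, 75783813 to 75798584), had 85.0 to 93.7 CPM after VEA 12.5, against 96.5 to 103.6 CPM after ethanol. Its change was -0.15 ± 0.14 (adjusted p = 0.595, 2 SE from -0.43 to 0.13). After PG 1100 it was -0.13 ± 0.14 (adjusted p = 0.676). A fall of the size seen in Gstm1 lies outside both of its intervals.

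Gsto1 (chromosome 19, 47854970 to 47864790) is an omega class enzyme that reduces dehydroascorbate and other substrates with glutathione. Its fitted change was below 0 after VEA and above 0 after PG, and neither passed the test. It had 89.2, 104.6 and 110.7 CPM after VEA 12.5, against 151.0, 152.0 and 134.0 CPM after ethanol, groups that did not overlap. It had 122.6, 109.3 and 180.1 CPM after PG 1100, against 67.3, 109.0 and 149.8 CPM after saline, groups that did. The changes were -0.52 ± 0.22 (adjusted p = 0.164) after VEA 12.5 and 0.34 ± 0.22 (adjusted p = 0.453) after PG 1100. Mean levels were 108.4, 113.8 and 101.5 CPM at VEA 3.12, 6.25 and 12.5, against 145.7 after ethanol and 108.7 after saline. A fall under VEA therefore depends on which control is used. With only VEA 12.5 and ethanol in the fit the adjusted p after VEA 12.5 was 0.00191, and with no filter on low counts it was 0.0108. With only VEA 3.12 and ethanol in the fit it was 0.0289 after VEA 3.12.

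The effect of VEA 12.5 was set against that of PG 1100 as a difference of differences, each against its own control. No member passed, while 0.19% of all genes did, 0.136% higher and 0.0543% lower. At an unadjusted p below 0.05 there were 1 member, Gsto1 (-0.86 ± 0.32, p from edgeR 0.0127, adjusted p = 0.416), and 1162 of all 14727 genes tested. DESeq2 and limma-voom called no member. With no filter on low counts edgeR called Gsto1 (-0.86, adjusted p = 0.0102). For Gsta3 the difference was -0.25 ± 0.25, for Gstm1 -0.30 ± 0.20 and for Gstm2 -0.38 ± 0.22. Their 2 SE intervals, -0.74 to 0.25, -0.70 to 0.11 and -0.82 to 0.05, include 0 and reach from a deeper to a shallower fall under VEA. For Gstm1 the treated means were 205.5 CPM after VEA 12.5 and 194 after PG 1100. Its control means were 501 CPM after ethanol and 385 after saline.

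PG 1100 was also compared with PG 826. Gsta3 and Gstm1 were lower at the higher dose, 2 of 9 members against 2.71% of all genes lower, 2.85% higher and 5.55% called in all. Gsta3 had 52.4 to 108.7 CPM after PG 1100, against 142.6 to 144.8 CPM after PG 826, and its change was -0.95 ± 0.18 (adjusted p = 0.000802). Gstm1 had 168.7 to 219.8 CPM after PG 1100, against 329.5 to 356.4 CPM after PG 826, and its change was -0.81 ± 0.14 (adjusted p = 0.000332). Gstm2 showed -0.07 ± 0.15 (adjusted p = 0.887, 2 SE from -0.38 to 0.24). Summed with its mu class relatives, chiefly Gstm1, the change was -0.59 (adjusted p = 0.006).

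Across the 3 VEA doses a straight line over dose was fitted, scaled to the step from 3.12 to 12.5. By edgeR it called none of the 9 members and 0 of all genes, against 3 members and 917 genes at an unadjusted p below 0.05, and DESeq2 and limma-voom called no member. Gsta3 had a slope of -0.47 ± 0.18 (adjusted p = 0.608), Gstm1 of -0.34 ± 0.14 (0.680) and Gstp1 of -0.34 ± 0.15 (0.733). Gsta3 had 95.0 ± 6.16, 96.7 ± 12.2 and 70.5 ± 8.18 CPM at VEA 3.12, 6.25 and 12.5, and the highest dose did not overlap the others.

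The controls themselves were compared, since VEA changes rest on the ethanol lungs. By edgeR no member and 0 of all genes passed, against 1 member and 892 genes at an unadjusted p below 0.05, and DESeq2 and limma-voom called no member. The member was Gstm1, with 395.0, 573.3 and 534.5 CPM after ethanol, against 372.1, 372.1 and 409.9 CPM after saline (0.38 ± 0.14, adjusted p = 0.711). Gsta2 had 8.31 ± 2.81 CPM after ethanol and 5.02 ± 3.43 CPM after saline. Cyp1a1, the best known target of the aryl hydrocarbon receptor, had 4.06 CPM in ethanol animal 12, 55.3 in animal 13 and 44.0 in animal 14, with 2.04 to 7.67 CPM in the saline lungs. Animal 12 was the lowest ethanol animal in Gsta2, Gsta3, Gstm1, Gstt1 and Gstp1, whereas animal 14 was the lowest in Gsta4, Gstm2, Gstm5 and Gsto1. The part of this in the VEA comparisons was not tested.

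Set against saline in place of ethanol, a comparison chosen after seeing the data, Gsta3, Gsta4, Gstm1 and Gstm2 were still lower at each VEA dose. Gsta2 was not called, with changes of -1.21, -1.30 and -1.67 at VEA 3.12, 6.25 and 12.5 (adjusted p = 0.225, 0.193 and 0.0533).

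Some markers of club and ciliated cells, which line the airways, fell in the same lungs, while some of goblet cells, which secrete mucus there, rose. In bulk tissue, fewer cells of a type and less RNA per cell cannot be told apart. Of 10 club cell markers, 6 fell after VEA 12.5 and 3 after PG 1100, among them Scgb1a1, their main secretory protein (-1.14 ± 0.15 and -1.24 ± 0.15). The summed club cell level was 28220 to 30060 CPM after VEA 12.5, against 50780 to 72400 CPM after ethanol, and 23700 to 34800 CPM after PG 1100, against 52720 to 72520 CPM after saline. Most of this sum came from the listed Scgb genes. After VEA 12.5 it averaged 29290 CPM, of which Cyp2f2, the highest other marker, had 885.3 CPM. Hp was not lower, with a mean of 780.7 CPM after VEA 12.5, against 677.8 CPM after ethanol. Of 10 ciliated cell markers, 6 fell after VEA 12.5 and 3 after PG 1100, with summed levels of 1929 to 2031 CPM after VEA 12.5, against 3097 to 3771 CPM after ethanol, and 2258 to 3161 CPM after PG 1100, against 3071 to 4185 CPM after saline. The ciliated cell sum was uneven too, averaging 1994 CPM after VEA 12.5, of which Foxj1 had 30.4 CPM. No marker of these 2 lists was at 0 in any group. After PG 826 no marker of these 2 lists passed, and the summed club cell level was 42430 to 45740 CPM. Of 5 tested goblet cell markers, 2 rose after VEA 12.5, Clca1 (5.27 ± 0.70) and Muc5b (1.48 ± 0.46), and 1 rose after PG 1100, Agr2 (3.16 ± 0.60), with none lower. The summed level of the 6 listed was 118.8 to 165.1 CPM after VEA 12.5, against 6.80 to 15.0 CPM after ethanol, and 15.4 to 30.5 CPM after PG 1100, against 4.02 to 15.1 CPM after saline. Most of the VEA 12.5 sum, which averaged 138.5 CPM, was Clca1 at 117.6 CPM. The defining goblet marker Muc5ac had too few counts to be tested. It was at 0 in the PG 1100, saline and ethanol groups, and had 4 counts after PG 826. After VEA 3.12, 6.25 and 12.5 it had 1, 4 and 26 counts per group. The part of these cells in the transferase changes was not tested.

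Other cell lists moved too. Of 8 markers of recruited macrophages, 7 rose after VEA 12.5 and 6 after PG 1100, and of 9 type II cell markers 4 and 5 rose. Of 7 endothelial markers, 3 fell after VEA 12.5 and 6 after PG 1100, and of 6 erythroid markers 6 and 5 fell. Of 9 alveolar macrophage markers, 4 rose and 2 fell after VEA 12.5, and 3 rose and 2 fell after PG 1100. Of 8 fibroblast markers, 2 rose and 3 fell after VEA 12.5, and 2 rose and 1 fell after PG 1100. Of 7 type I cell markers, 3 and 1 fell. Of 5 smooth muscle markers, 3 fell after VEA 12.5 and none passed after PG 1100. Beside these counts and those of the airway lists, 5.48% of all genes were higher and 4.23% lower after VEA 12.5. After PG 1100 the shares were 4.09% higher and 3.23% lower. The part of these lists in the transferase changes was not tested.

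The genes most like each member over the 21 libraries, by Pearson r of log2 CPM among 10598 genes averaging at least 5 CPM, are given as a description, since the libraries share their treatment groups. Gsta3 was most like Aldh1a1 (r = 0.972) and Cyp2f2 (0.966), a club cell cytochrome. Gstm1 was most like Gsta3 (0.943) and Cyp2f2 (0.925), and Gstm2 most like Cbr2 (0.950) and Aldh1a1 (0.930). Gsta4 was most like Adam28 (0.924) and Aldh1a7 (0.893). Gstp1 was most like Gstp2 (0.895) and Pea15a (0.794), Gstt1 like Cox6a2 (0.896) and Supt16 (0.823), and Gsta2 like Fabp1 (0.875) and Srpk2 (0.865). Gstm5 had Slc44a4 (0.820) and Pdha1 (0.776), and Gsto1 had Taf1b (0.759) and Ccdc176 (0.729).

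**Figure D3:**
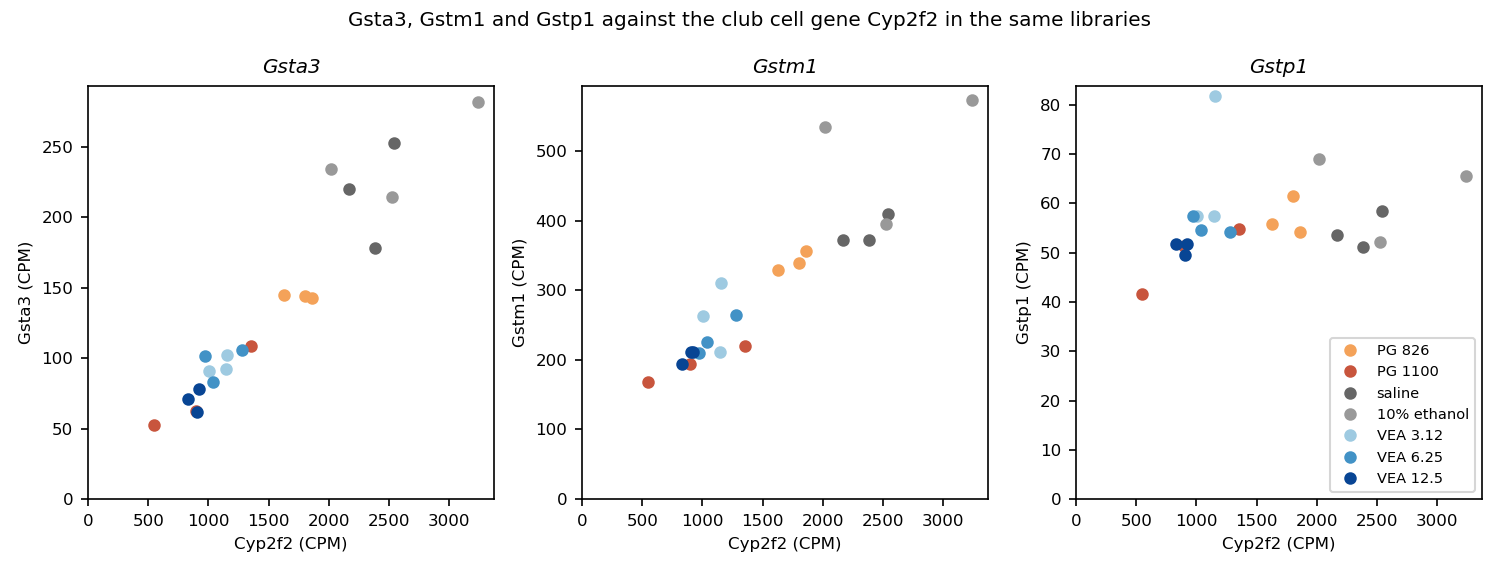
CPM of Gsta3, Gstm1 and Gstp1 (vertical axes) against CPM of the club cell gene Cyp2f2 (horizontal axes) in the same 21 libraries, coloured by group. Libraries with 550.4 to 918.4 CPM of Cyp2f2, after VEA 12.5 and in 2 lungs after PG 1100, hold the lowest Gsta3, at 52.4 to 78.2 CPM, and Gstm1 at 168.7 to 211.0 CPM, while Gstp1 spans 41.5 to 81.8 CPM over all libraries.

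Most other glutathione transferases did not pass the test. Of 23 listed, 20 were in the files and 17 were tested, and none passed after either PG dose. After VEA 12.5, the mitochondrial and peroxisomal Gstk1 (-0.72 ± 0.17, adjusted p = 0.00511) and the microsomal Mgst1 (-0.61 ± 0.16, adjusted p = 0.00803) fell. Mgst1 had 206.9, 239.3 and 227.2 CPM after VEA 12.5, against 330.9, 384.8 and 314.8 CPM after ethanol. Hpgds, a sigma class relative that makes prostaglandin D, rose by 2.11 ± 0.60 (adjusted p = 0.0190), with 8.49, 3.90 and 6.98 CPM after VEA 12.5, against 2.42, 0.648 and 1.40 CPM after ethanol. Mgst1 also fell after VEA 3.12 (-0.54 ± 0.16) and Gstk1 after VEA 6.25 (-0.64 ± 0.17), 1 gene of the list at each dose. Of all genes, 2.09%, 2.25% and 4.23% were lower after VEA 3.12, 6.25 and 12.5, and 5.48% were higher after VEA 12.5.

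Few genes that make and recycle glutathione passed the test. Of 20 tested, 3 rose and 1 fell after PG 1100, 2 rose and 1 fell after VEA 12.5, and none passed at VEA 3.12, VEA 6.25 or PG 826. Beside 5.48% of all genes higher and 4.23% lower after VEA 12.5, and 4.09% higher and 3.23% lower after PG 1100, counts of 1 to 3 genes say little about the list. Gclc, the catalytic subunit of the rate-limiting enzyme of synthesis, rose after PG 1100 (0.69 ± 0.16, adjusted p = 0.00524), with 143.2 to 266.9 CPM after PG 1100, against 132.8 to 138.5 CPM after saline. Slc7a11, the cystine importer, rose after PG 1100 (1.63 ± 0.50, adjusted p = 0.0404) and after VEA 12.5 (1.44 ± 0.47, adjusted p = 0.0420). Pgd, which makes NADPH, also rose after PG 1100 (0.53 ± 0.16) and Cbs, of the route to cysteine, fell (-2.12 ± 0.57). After VEA 12.5 the dipeptidases moved apart, Cndp2 rising (0.60 ± 0.20) and Dpep1 falling (-0.65 ± 0.18).

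Of 17 peroxidases, peroxiredoxins and glutaredoxins tested, 1 rose and 2 fell after VEA 12.5, and 2 rose and 1 fell after PG 1100. Of all genes, 5.48% were higher and 4.23% lower after VEA 12.5, and 4.09% higher and 3.23% lower after PG 1100. Such small counts say little about the list. Prdx6, a lung peroxiredoxin that uses glutathione, fell after VEA 12.5 (-0.85 ± 0.14, adjusted p = 3.29e-05) and after PG 1100 (-0.45 ± 0.14, adjusted p = 0.0350). It had 566.1, 610.6 and 565.4 CPM after VEA 12.5, against 972.6, 1160 and 1010 CPM after ethanol. Prdx4, the peroxiredoxin of the endoplasmic reticulum, rose under both (1.02 ± 0.25 and 1.04 ± 0.24). Gpx2 fell after VEA 12.5 (-1.41 ± 0.30) and the glutaredoxin Glrx rose after PG 1100 (1.21 ± 0.21). Of 9 tested genes of conjugate export and mercapturic acid formation, none passed in any comparison with a control.

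In the list of NRF2 regulators and targets that are not transferases, some were lower after VEA, and after PG 1100 some were lower and 1 was higher. Of the 19, 5 fell and none rose after VEA 12.5, and 3 fell and 1 rose after PG 1100. Of all genes, 4.23% were lower and 5.48% higher after VEA 12.5, and 3.23% lower and 4.09% higher after PG 1100. The glutathione synthesis list was counted apart, with Gclc, Pgd and Slc7a11 higher and Cbs lower after PG 1100. After VEA 12.5 that list had Slc7a11 and Cndp2 higher and Dpep1 lower. The oxidoreductases Cbr3 (-1.29 ± 0.21), Nqo1 (-2.55 ± 0.42) and Aldh3a1 (-1.32 ± 0.26) and the epoxide hydrolase Ephx1 (-0.81 ± 0.14) fell after VEA 12.5. The ethanol lungs were high in 2 of these genes. Nqo1 averaged 2.503 ± 1.27 CPM after VEA 12.5, against 14.7 ± 6.76 CPM after ethanol and 5.42 ± 2.18 CPM after saline. Cbr3 averaged 19.7 ± 3.02 CPM after VEA 12.5, against 48.2 ± 12.7 CPM after ethanol and 26.6 ± 3.33 CPM after saline. After PG 1100 Ephx1 (-0.65 ± 0.14), Aldh3a1 (-1.19 ± 0.26) and Nfe2l1 (-0.43 ± 0.13) fell, and Hmox1, haem oxygenase, rose (2.33 ± 0.46, adjusted p = 0.00208). None of the 19 passed after PG 826.

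Of 7 tested genes of the aryl hydrocarbon receptor list, 3 fell after VEA 12.5, namely Cyp1a1 (-3.43 ± 0.75), Nqo1 and Aldh3a1, and 1, Aldh3a1, fell after PG 1100. Cyp1a1 had 1.39, 2.84 and 5.38 CPM after VEA 12.5, a range that reached over ethanol animal 12. Of 6 tested enzymes of other conjugation reactions, 2 fell after VEA 12.5, Inmt (-1.02 ± 0.14) and Sult1d1 (-2.33 ± 0.67), and 1, Inmt, fell after PG 1100 (-1.09 ± 0.14). Inmt is also a fibroblast marker. Beside the counts of these lists, 4.23% of all genes were lower after VEA 12.5 and 3.23% after PG 1100.

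**Figure D4:**
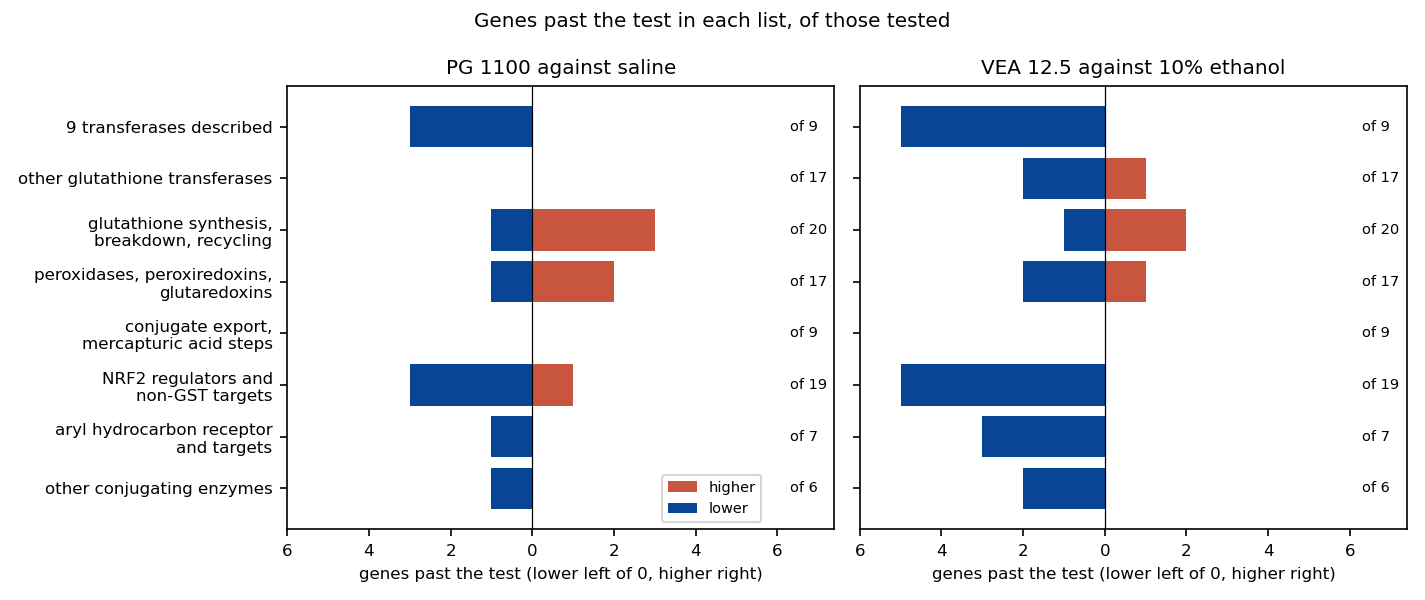
Number of genes past the test (adjusted p below 0.05) in each list, lower to the left of 0 and higher to the right, after PG 1100 against saline and after VEA 12.5 against 10% ethanol, with the number tested at the right of each bar. Members were lower in 3 and 5 of 9, and the glutathione synthesis list had 3 and 2 genes higher.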

How the data were processed

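The authors deposited whole-number read counts per gene symbol, 1 file per library. Per the submitters' processing notes, Bowtie2, bedtools and the assembly mm10 were used, with no versions given. Per the labels' protocols, libraries were made with the Lexogen QuantSeq kit from 500 ng of RNA. Each file had 23282 rows, 35 symbols stood on more than 1 row and had their rows added, which left 23238 symbols. Genes were filtered by group with filterByExpr, libraries scaled by TMM, and a robust quasi-likelihood fit was made over all 21 libraries, with 1 coefficient for each group, in edgeR 4.0.16 (R 4.3.3), with 14 residual degrees of freedom and a biological coefficient of variation of 23.8%. It was tested on simulated data. The SE is the absolute log2 fold change over the square root of F. Alternatives were RLE scaling, DESeq2 1.42.0, limma-voom 3.58.1, all genes kept whatever their counts, a fit of the compared groups alone, symbols of close relatives summed, Rn45s and haemoglobin left out, ranks of dose, the 3 libraries with the fewest detected genes left out, and each animal left out in turn. VEA against saline was added after seeing the data. The members, lists and tests were chosen with earlier results of these data known. All members were named. Up to 4 called genes per pathway list, in order of p, were eligible for naming, and the 2 most similar genes per member. Coordinates are from GENCODE M21 (GRCm38) and promoters from RefSeq (GRCm38.p6).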

Additional observations from a re-analysis of the deposited data

Results flagged for a closer look

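Cldn10, a junction protein listed as a club cell marker, was the only gene among the 9 transferases and the club and ciliated cell markers whose change under VEA 12.5 differed from that under PG 1100 by the edgeR test of the difference. The difference was -0.99 ± 0.22 (adjusted p = 0.0449), while 0.19% of all genes passed this test. Cldn10 was not followed through the alternatives listed with the methods. Outside these lists, Acta2 of the smooth muscle markers also passed, lower under VEA. Cldn10 had 28.2 ± 2.07 CPM after VEA 12.5 and 71.4 ± 6.68 CPM after ethanol, and 52.3 ± 5.66 CPM after PG 1100 and 66.5 ± 12.4 CPM after saline.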

How the results depend on the processing

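Under the alternatives listed with the methods, other than VEA against saline, the PG 1100 and VEA calls of Gsta3, Gstm1 and Gstm2 held in every one, as did Gsta2 at VEA 12.5. The number of members called changed as follows. The share of all genes called in each setting is not given beside these counts. They therefore do not set the members apart from other genes. With no low-count filter it was 2 for PG 826 (Gsta3 added, adjusted p = 0.0183), 6 for VEA 12.5 (Gsto1 added) and 1 for the VEA 12.5 effect minus the PG 1100 effect. Without the 3 libraries in which fewest genes were detected it was 0 for PG 826, 3 for VEA 3.12, 3 for VEA 6.25 and 4 for VEA 12.5, where Gsta4 lost its call (0.0541). With close relatives summed it was 0 for PG 826, 4 for VEA 3.12 and 3 for PG 1100 against PG 826. In that setting Gstm1 and Gstm2 take the same sum, so their calls there, also counted above as held, are not separate. With only the groups compared it was 0 for PG 826 and 6 for both VEA 3.12 and VEA 12.5 (Gsto1 added). Against saline it was 4 at each VEA dose. Leaving out single animals gave 0 to 1 members for PG 826, 3 to 5 for PG 1100, 3 to 4 for VEA 3.12, 3 to 5 for VEA 6.25 and 5 to 5 for VEA 12.5. The causes were not tested.

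Changes of sign occurred only among values not called in either setting. The Gsta4 dose slope was 0.00365 with RLE, 0.00824 without the 3 libraries, 0.0114 without Rn45s and haemoglobin, 0.00368 with DESeq2 and 0.00402 with only the groups compared. Gsta2 at PG 826 was 0.107 without the 3 libraries and 0.359 with limma-voom, and Gsta4 for PG 1100 against PG 826 was -0.0017 and -0.0123. Without the 3 libraries, Gstt1 at VEA 3.12 was 0.016, and ethanol against saline gave -0.0884 for Gstm2 and -0.00232 for Gstm5. With only the groups compared, the Gstt1 difference between agents was 0.0023. Against saline, VEA 6.25 gave 0.0126 for Gstm5, 0.0661 for Gsto1 and 0.0262 for Gstp1.

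Leaving out single animals, the uncalled values that changed sign ranged as follows. For PG 826 against saline they were -0.53 to 0.418 for Gsta2, -0.325 to 0.146 for Gstm5. For VEA 12.5 effect minus PG 1100 effect they were -0.444 to 0.129 for Gsta3, -0.146 to 0.112 for Gstt1. For 10% ethanol against saline they were -0.103 to 0.385 for Gsta4, -0.101 to 0.093 for Gstm2, -0.079 to 0.323 for Gstm5. For PG 1100 against PG 826 they were -0.201 to 0.173 for Gsta4, -0.333 to 0.0543 for Gstm2, -0.289 to 0.142 for Gsto1. For the VEA trend over the treated doses they were -0.0543 to 0.0788 for Gsta4, -0.0852 to 0.157 for Gstm5. For VEA 6.25 against 10% ethanol they were -0.0961 to 0.0201 for Gstm5. For VEA 3.12 against 10% ethanol they were -0.12 to 0.164 for Gstp1, -0.102 to 0.0484 for Gstt1.

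No paired analysis was possible because no animal number is shared between groups. Depth limits Gsta2 most, with 3 to 103 counts per library.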
